A study of Rattus norvegicus with 10 samples.

Results

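Matrix metalloproteinases (MMPs), their tissue inhibitors (TIMPs and Reck), the membrane-bound ADAMs, the secreted ADAMTS proteases, the astacin-type proteases Bmp1, Mep1a and Mep1b, and the mostly lysosomal cathepsins were followed in kidneys of growth-restricted and normal rat fetuses. All probe sets were taken whose single symbol in the platform annotation belonged to one of these families, which gave 50 genes on 66 probe sets among the 10412 genes and 12789 probe sets with 1 symbol. Of these, 32 genes on 42 probe sets were bright enough to be tested, and 18 genes had no tested probe set. The rule itself reads gene names and no signal, although the families were picked with earlier results of these data known. The table held no probe set for Timp4.

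The hyperinsulinemic group was 5 kidney samples (replicates 6 to 10) from growth-restricted fetuses of Wistar mothers weighing 200 to 280 g, each of which had received 2 mm of a slow-release insulin implant under the skin, a week before mating and once more a week after it. The normal group was 5 kidney samples (replicates 1 to 5) from fetuses of mothers for which no treatment beyond the diet is given. Both groups of mothers ate a regular diet, and the sampled kidneys are labelled as day 22 of gestation, close to birth. No strain is given for the normal mothers, and no litter, fetal sex or batch for any sample, so p-values measure only the spread between these samples and littermates would make them too small.

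Proteases of these families cut and remodel the matrix around cells and release signals from cell surfaces, while TIMPs and Reck hold the metalloproteinases in check. In the developing kidney, MMP activity accompanies branching of the ureteric bud, and meprins line the brush border of the proximal tubule. Cathepsins break down proteins inside lysosomes, which are abundant in tubule cells that take up filtered protein.

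Total RNA was hybridised to 1-colour Affymetrix arrays, 1 per sample, and each value is a MAS5 signal, a linear brightness per probe set whose trimmed mean was 250 on every deposited array. Differences below are on the log2(signal + 16) scale, hyperinsulinemic minus normal, with standard errors, and were tested in limma over all 9601 probe sets that passed the filter. Levels of different probe sets are not comparable, since each binds with its own strength. Of 13 kidney epithelium markers in the list, 12 had a named probe set in the table, and all 12 passed the filter. Several markers of other tissues varied between arrays. Normal replicate 1 stood apart in most of the adrenal steroid genes read. It had 295 for Cyp11a1, 218 for Hsd3b1, 156 for Cyp11b1 and 195 for Cyp21a1, against at most 78.2, 6.3, 19.6 and 34.4 on the other arrays. For Star it was nearer to them, at 49.7 against at most 45.3 on the brighter probe set and 29.6 against at most 22.2 on the dimmer. Hyperinsulinemic replicate 6 had an Alb signal of 1742 and normal replicate 4 one of 842, against 42.9 to 436 elsewhere, and the summed signal of 6 tested liver markers ran from 562 to 4498 in the hyperinsulinemic group and from 384 to 1677 in the normal group. Xist, which is made by cells with more than one X chromosome, was 42.4 to 70.5 in the hyperinsulinemic group and 0.8 to 2 in the normal group, so maternal treatment and fetal sex cannot be told apart. These Xist signals lay below the 40th percentile of every array (79.2 to 87.6), and fetal sex was read from no other gene. The mean signal of a list of stroma markers differed between the groups and is given beside the inhibitors.

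No protease or inhibitor passed the test. Of 42 probe sets 0 reached an adjusted p of 0.05 in limma, where 1 of all 9601 did (0.0104%), and the lowest adjusted p among them was 0.907. In the same limma fit before adjustment, 4 of the 42 (9.52%) passed the 0.05 level with the hyperinsulinemic mean the lower one, against 2.93% of all probe sets, and 0 with it the higher one, against 2.44%. The 4 measured Timp3, Timp2, Ctsl and Ctsh. In 0 of the 42 were the groups free of overlap, against 1.04% of all probe sets. The count of 4 depended on single arrays: it was 1 without normal replicate 1, the array with adrenal transcripts, 2 without normal replicate 2 or 3, and 7 without hyperinsulinemic replicate 10. Differences were small. They ran from -0.22 to 0.12, and every 95% interval lay within -0.45 to 0.33. Their signs were uneven, with 33 of 42 (78.6%) below 0 and a median of -0.07, against 49.1% below 0 and a median of 0.0020 over all 9601. Leaving out 1 array at a time gave 27 to 34 below 0, the fewest (64.3%) without normal replicate 4. Counted as 1 probe set per gene, the one with the highest mean, 24 of 32 genes lay below 0, with a median of -0.06.

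**Figure D1:**
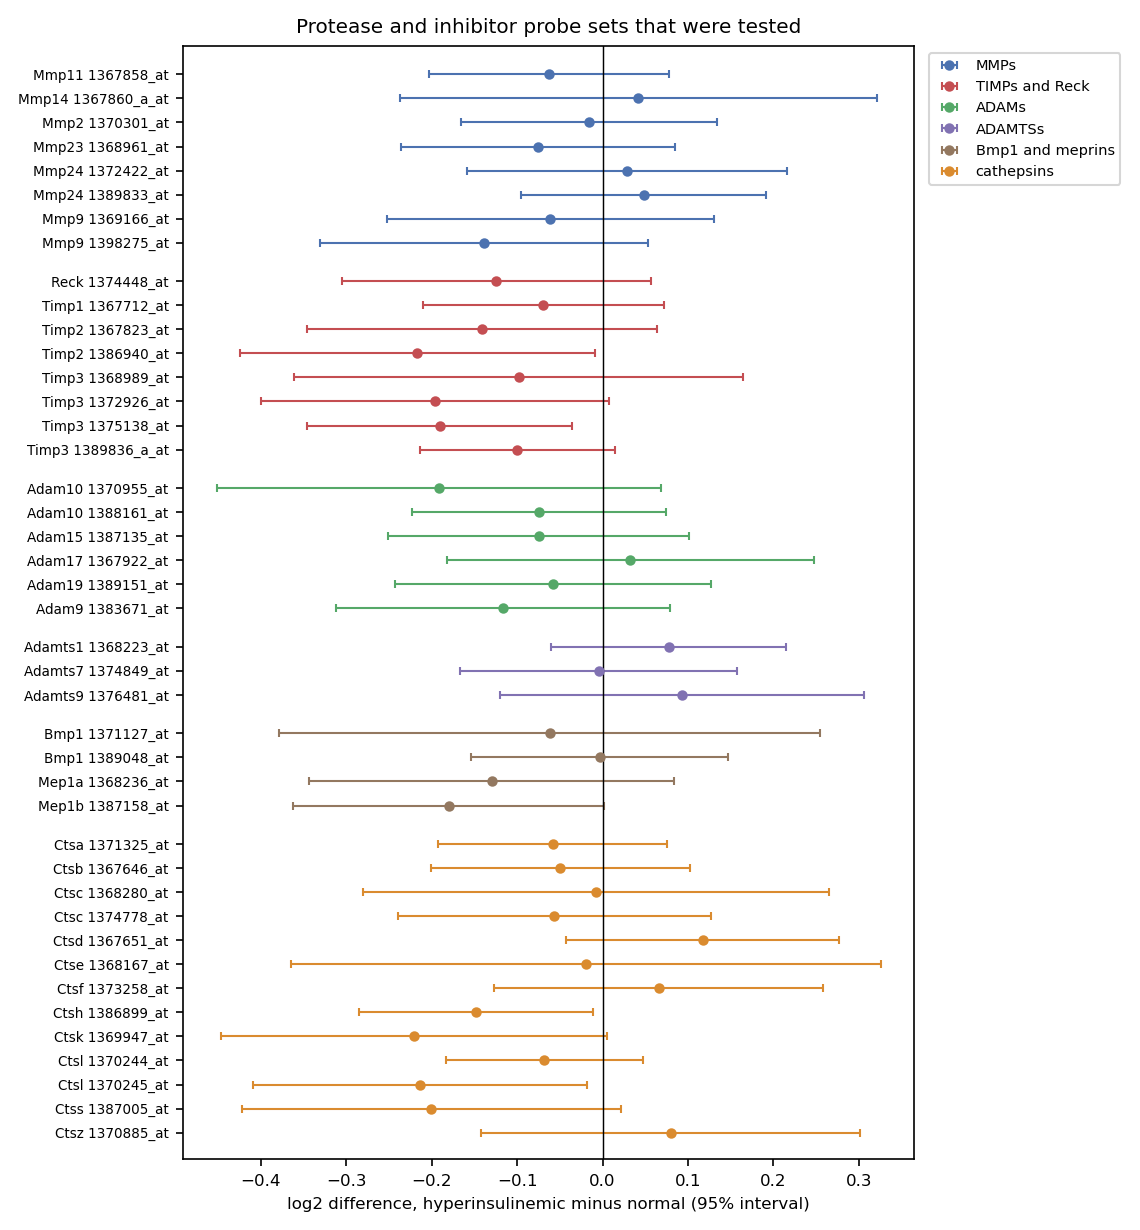
Log2 difference of each of the 42 tested probe sets (x axis, hyperinsulinemic minus normal, log2(signal + 16); points are limma estimates from 5 arrays per group and bars their 95% intervals), grouped by protein family. All 8 probe sets of TIMPs and Reck lie left of 0, and no interval extends beyond -0.45 or 0.33.

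Among the MMPs, 8 probe sets of 6 genes were tested, 5 below 0 and 3 above, with a median log2 difference of -0.04, and 0 had an unadjusted p under 0.05. Mmp2, the gelatinase that degrades basement membrane collagen, gave signals of 905, 1047, 879, 958 and 996 in hyperinsulinemic kidneys and 852, 942, 974, 1106 and 972 in normal kidneys with the brighter of its probe sets. The groups covered the same range, and the difference was -0.02 ± 0.07 (adjusted p = 0.992), with an interval of -0.17 to 0.13. Its other probe set stayed below the filter, at 43.2 to 98.5 and 55.8 to 77.5. Mmp14, the membrane-anchored MMP that activates pro-Mmp2 at the cell surface, stood at 150.2, 268, 225, 239.8 and 204 in hyperinsulinemic kidneys and 216, 251, 201, 208 and 169 in normal kidneys. Hyperinsulinemic replicate 6 was the lowest of all 10 arrays and replicate 7 the highest, and the difference was 0.04 ± 0.13 (adjusted p = 0.988).

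Mmp9, the second gelatinase and one carried by leukocytes as well as by epithelium, had 149, 151, 145, 121 and 115 in hyperinsulinemic kidneys and 152, 146, 139, 150 and 169.6 in normal kidneys on the brighter of its probe sets. The 2 lowest values were hyperinsulinemic replicates 9 and 10, and the difference of -0.14 ± 0.09 did not pass (adjusted p = 0.970). Its dimmer probe set differed by -0.06 ± 0.09. Mmp23, a membrane-bound MMP that lacks the usual haemopexin domain, gave 248, 254, 259, 289 and 309.8 in hyperinsulinemic kidneys and 309.6, 271, 307, 277 and 272 in normal kidneys. Here 3 hyperinsulinemic arrays lay below every normal one and 1 above, with a difference of -0.08 ± 0.07 (adjusted p = 0.973). Mmp11, a stromal MMP known as stromelysin-3, differed by -0.06 ± 0.07, and the 2 tested probe sets of Mmp24, a membrane-type MMP first described in brain, by 0.03 ± 0.09 and 0.05 ± 0.07.

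The remaining 8 MMP genes had no probe set above the filter, and 6 of them are neighbours. Mmp13, Mmp12, Mmp3, Mmp10, Mmp8 and Mmp7 lie in a run of 10 protein-coding genes on rat chromosome 8, all of them MMPs, in RefSeq's GRCr8 annotation. Mmp13 and Mmp8 are collagenases, Mmp3 and Mmp10 stromelysins, Mmp12 the macrophage elastase and Mmp7 matrilysin. Mmp7, which adult tubules are known to induce after injury, stood at 2.7, 2.2, 2.3, 2.9 and 4.4 in hyperinsulinemic kidneys and 2.9, 2.5, 2.6, 2.3 and 1.9 in normal kidneys, close to the floor of the arrays. Mmp10 had at most 5.9 and 6.2, and Mmp13 ran from 15.8 to 21.8 and from 10.1 to 19.3. Mmp3 ran from 16.2 to 33.4 and from 17.3 to 30.8, Mmp8 from 19.8 to 39.7 and from 19.7 to 38.8, and Mmp12 from 16.5 to 47.0 and from 33.6 to 44.6, in each case with the hyperinsulinemic range first. A dim probe set can mean a low transcript or weak binding, so these values show only that neither group gave a signal at the 40th percentile of its array.

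The start regions of these 6 neighbours are shown because all 6 share TATAAA, which the start regions of the tested inhibitors lack. The sequences are RefSeq's, build GRCr8, from 100 bases before to 20 bases after the annotated gene start, 5′ to 3′. Capitals mark matches to any of 3 motifs on either strand, so the reverse complement is marked too. The TATA box was searched as TATAAA. The AP-1 site, the target of Fos and Jun, was searched as TGACTCA. The GC box was searched as GGGCGG. Matches of different motifs do not overlap in these windows.
Mmp13 (chr8:12782729-12782848, plus strand): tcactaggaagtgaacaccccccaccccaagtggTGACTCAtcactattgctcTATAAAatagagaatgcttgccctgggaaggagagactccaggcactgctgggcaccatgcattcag
Mmp12 (chr8:12866552-12866671, plus strand): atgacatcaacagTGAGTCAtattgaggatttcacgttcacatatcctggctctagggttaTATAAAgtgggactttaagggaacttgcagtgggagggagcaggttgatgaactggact
Mmp3 (chr8:12925181-12925300, plus strand): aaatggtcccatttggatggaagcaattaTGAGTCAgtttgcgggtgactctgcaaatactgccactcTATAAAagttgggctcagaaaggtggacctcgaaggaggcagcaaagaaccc
Mmp10 (chr8:12974607-12974726, plus strand): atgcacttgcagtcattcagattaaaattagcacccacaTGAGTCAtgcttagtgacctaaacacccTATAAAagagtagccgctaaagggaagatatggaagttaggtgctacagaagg
Mmp8 (chr8:13008790-13008909, plus strand): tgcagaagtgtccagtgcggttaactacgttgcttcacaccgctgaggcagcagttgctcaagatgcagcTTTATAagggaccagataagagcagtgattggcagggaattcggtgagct
Mmp7 (chr8:13132943-13133062, plus strand): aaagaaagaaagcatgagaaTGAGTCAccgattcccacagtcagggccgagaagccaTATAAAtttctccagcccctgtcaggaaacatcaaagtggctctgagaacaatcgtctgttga
Timp2 (chr10:104089195-104089314, minus strand): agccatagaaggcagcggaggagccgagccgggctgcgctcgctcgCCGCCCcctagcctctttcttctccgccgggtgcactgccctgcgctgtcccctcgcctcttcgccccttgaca
Timp3 (chr7:19459539-19459658, minus strand): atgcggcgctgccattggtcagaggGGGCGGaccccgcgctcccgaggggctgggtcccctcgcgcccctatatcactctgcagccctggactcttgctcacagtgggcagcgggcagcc

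In the full windows of 300 bases that the table holds, TATAAA was found in 6 of the 6 chromosome 8 MMPs and TGACTCA in 5 of 6, Mmp8 being the exception, while GGGCGG was found in 0. Over all 33469 promoters of the same length these shares were 14.2%, 4.63% and 33.1%, and both TATAAA and TGACTCA stood in 0.762%. Over 2776 promoters of array genes with no tested probe set, the 3 single shares were 13.8%, 5.33% and 44.1%. In the inhibitor genes, TATAAA and TGACTCA were found in 0 of 4, and GGGCGG in 4 of 4. Over 6691 promoters of array genes that were tested, the shares were 6.80%, 3.39% and 64.5%. Each of the 3 inhibitor results was thus also the more frequent one among tested genes. A sequence was held for 35 of the 50 genes, of which 26 had been tested. Among those 26, TATAAA was found in 3, TGACTCA in 1 (Adam19) and GGGCGG in 20 (76.9%). The neighbouring MMP genes are known to have arisen by duplication, so they are not independent cases. A match of letters is not evidence that a factor binds there.

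**Figure D2:**
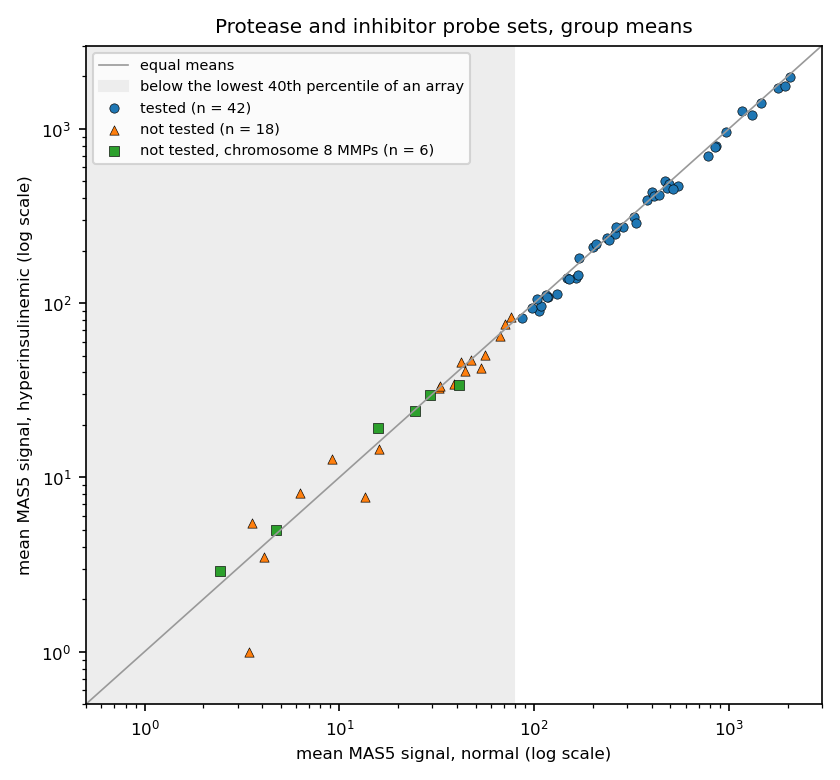
Mean MAS5 signal of all 66 probe sets in the hyperinsulinemic group (y axis) against the normal group (x axis), both on log scales, 5 arrays per group; the shaded band marks normal means below 79.2, the lowest 40th percentile of any array. The 6 chromosome 8 MMPs sit inside the band, and the tested probe sets follow the line of equal means.

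The other MMPs below the filter were Mmp16 and Mmp17, both membrane-type. Mmp16 was 38.4, 46.1, 44.6, 47.1 and 35.5 in hyperinsulinemic kidneys and 56.7, 48.4, 47.5, 52.4 and 62.4 in normal kidneys. Every hyperinsulinemic array was lower than every normal one, but all values lay below the 40th percentile, and with the filter removed the difference was -0.25 ± 0.10 (adjusted p = 0.949 over 15866 probe sets). Mmp17 stood at 82.6, 97.3, 70.5, 73.9 and 90 in hyperinsulinemic kidneys and 66.3, 75, 73.3, 89.5 and 75 in normal kidneys, reaching the filter on 4 of the 10 arrays.

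The inhibitors all lay on one side of 0. All 8 probe sets of Timp1, Timp2, Timp3 and Reck were tested, 8 of 8 had a difference below 0, and their median log2 difference was -0.13, but 0 passed the test and probe sets of 1 gene measure the same transcripts. The count stayed at 8 with any 1 array left out and was 7 without the 2 arrays with the most Alb. Timp3, which binds to the matrix and inhibits ADAMs as well as MMPs, gave 428, 442, 498, 469 and 416 in hyperinsulinemic kidneys and 524, 531, 577, 448 and 506 in normal kidneys on the probe set with the lowest p of all 42. In this one, 3 hyperinsulinemic arrays lay below every normal array and 5 of 5 below the normal median. The difference was -0.19 ± 0.07 (unadjusted p = 0.0192, adjusted p = 0.907). The brightest Timp3 probe set stood at 811, 724, 811, 822 and 761 in hyperinsulinemic kidneys and 798, 848, 835, 854 and 877 in normal kidneys, a difference of -0.10 ± 0.05 (adjusted p = 0.941). Again all 5 hyperinsulinemic arrays were below the normal median. The third gave 119, 155, 171, 137 and 144 in hyperinsulinemic kidneys and 174, 167, 191, 149 and 159 in normal kidneys. It differed by -0.20 ± 0.10, and the fourth and dimmest, whose groups covered much the same range, by -0.10 ± 0.12.

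Timp2, which inhibits Mmp2 and also takes part in its activation by Mmp14, had 362, 309, 245, 283 and 235 in hyperinsulinemic kidneys and 321, 341, 338, 347 and 314 in normal kidneys on its brighter probe set. Hyperinsulinemic replicate 6 was the highest of all 10 arrays and the other 4 lay below every normal one, so the spread in the hyperinsulinemic group (SD 51.2) was wider than in the normal group (SD 13.7). The difference was -0.22 ± 0.10 (unadjusted p = 0.0417, adjusted p = 0.918). On its dimmer probe set it was -0.14 ± 0.10. Reck, a membrane-anchored inhibitor of several MMPs, showed the same kind of spread, at 845, 984, 745, 738 and 666 in hyperinsulinemic kidneys and 841, 856, 892, 885 and 834 in normal kidneys. Replicate 7 was the highest and 3 hyperinsulinemic arrays lay below every normal one, with a difference of -0.12 ± 0.08 (adjusted p = 0.973). Timp1, a secreted inhibitor encoded on the X chromosome, gave 419.5, 357, 443, 451 and 422 in hyperinsulinemic kidneys and 431, 453, 421, 449 and 439.8 in normal kidneys. Its difference was -0.07 ± 0.07 (adjusted p = 0.973), with an interval of -0.21 to 0.07, and hyperinsulinemic replicate 7 was the lowest.

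**Figure D3:**
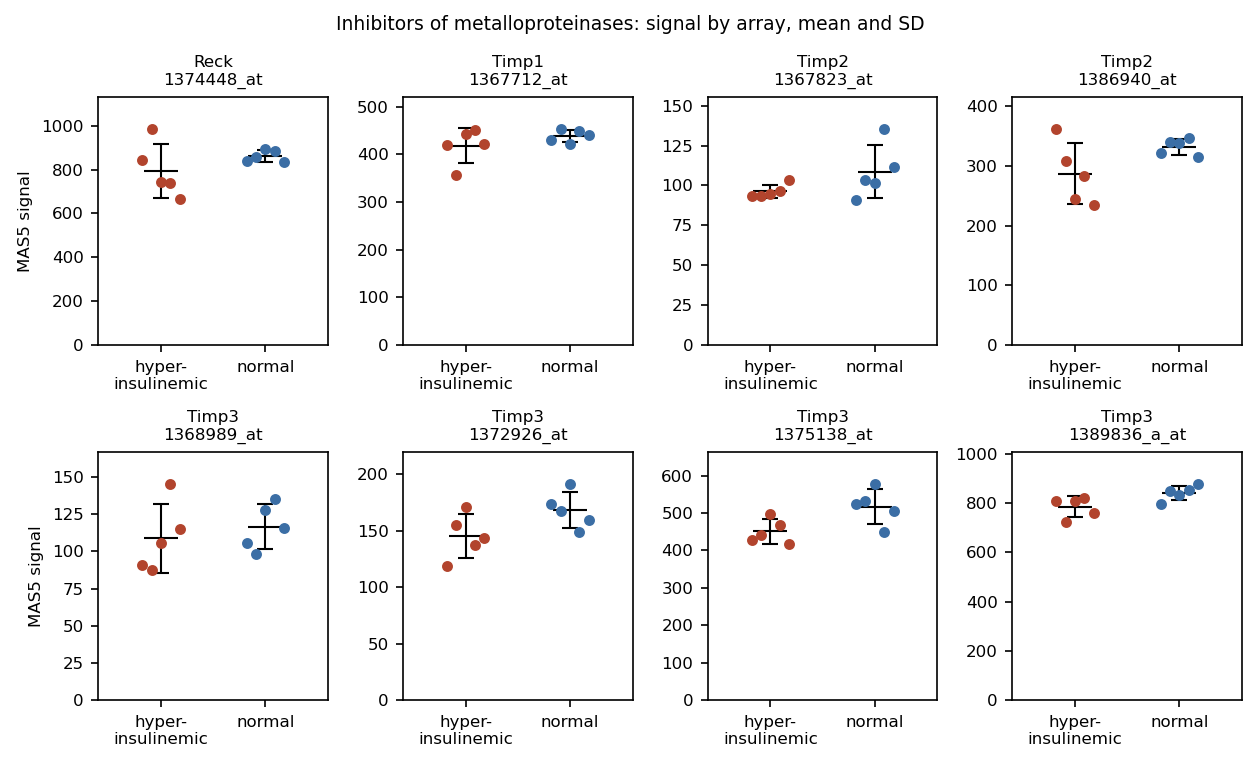
MAS5 signal of the 8 probe sets of TIMPs and Reck on each array (y axis, linear from 0), hyperinsulinemic left and normal right; points are arrays, and bars the mean and SD of 5. In Reck and in the brighter Timp2 probe set the hyperinsulinemic points spread more widely (SD 123 and 51.2) than the normal ones (SD 26.0 and 13.7), and in all 8 panels the groups overlap.

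Stroma markers were also lower, as a list, in the hyperinsulinemic group. Of 7 stroma markers 7 were tested, each on the brightest probe set of its gene, and 0 were absent. All 7 were lower in the hyperinsulinemic group, against 49.1% of all 9601 probe sets. Lum and Postn differed most, by -0.63 and -0.43, and the rest by -0.11 to -0.17. A dimmer Col1a1 probe set, not counted here, differed by -0.21 (limma unadjusted p = 0.00346, adjusted p = 0.676). In limma 3 of the 7 were lower at an unadjusted p under 0.05, against 2.93% of all probe sets. The lowest adjusted p of the 7 was 0.132, for Lum. Their summed signal was 7001 to 8112 in the hyperinsulinemic group and 7986 to 9289 in the normal group. The mean log2 signal of the list was 9.54 ± 0.06 and 9.79 ± 0.08 (SD, n = 5 each; exact two-sided permutation p = 0.00794, which is the lowest value possible with these group sizes; adjusted p = 0.0476 over 6 marker lists), with every hyperinsulinemic array below every normal one. The list was chosen with earlier results of these data known, so these p-values describe the arrays and are not independent support. Fewer stroma cells and less RNA per stroma cell cannot be told apart in whole kidney. With that list's mean as a covariate, added after the data were seen, 24 of 42 members lay below 0 and 6 of 8 inhibitor probe sets did. The brighter Timp2 probe set, Reck and Mmp2 turned to the other sign, at 0.12, 0.14 and 0.16. Other differences grew in size, to -0.40 and -0.42 for the Timp3 probe sets at -0.19 and -0.20 without the covariate, and to 0.44 for Mmp14, and the lowest adjusted p among members was 0.999. In that fit the covariate itself separates the groups.

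ADAMs cut proteins at the cell surface. Of 12 genes, 5 were tested on 6 probe sets, 5 of which were below 0, with a median of -0.07, and 0 had an unadjusted p under 0.05. Adam10, the main sheddase of Notch and cadherins, gave 278, 253, 233, 249.2 and 224 in hyperinsulinemic kidneys and 265, 259, 272, 269 and 241 in normal kidneys on its brighter probe set. Its difference was -0.07 ± 0.07 (adjusted p = 0.973). On the dimmer one the signals were 104, 98.6, 87, 86.6 and 74.8 in hyperinsulinemic kidneys and 135, 84.2, 121, 102 and 89.8 in normal kidneys, and the difference of -0.19 ± 0.12 was the largest in size among the 6 ADAM probe sets, with an interval of -0.45 to 0.07 (adjusted p = 0.969). Adam17, which releases tumour necrosis factor and ligands of the epidermal growth factor receptor, stood at 416, 439.6, 297, 403 and 389.5 in hyperinsulinemic kidneys and 333, 376, 403, 344 and 436 in normal kidneys. Hyperinsulinemic replicates 7 and 8 were the highest and the lowest of all 10 arrays, and the difference was 0.03 ± 0.10 (adjusted p = 0.988). Adam9, another widely expressed sheddase, had 102, 119.6, 124, 90.7 and 104 in hyperinsulinemic kidneys and 122, 113, 120.1, 107 and 128 in normal kidneys. There 3 hyperinsulinemic arrays were below every normal one, at a difference of -0.12 ± 0.09 (adjusted p = 0.973). Adam15 and Adam19 differed by -0.07 ± 0.08 and -0.06 ± 0.09.

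The 7 ADAM genes with no tested probe set were Adam2, Adam6, Adam7, Adam18, Adam22, Adam23 and Adam32, at signals of 4.8 to 82.9. Adam2, Adam7, Adam18 and Adam32 are known from the testis or epididymis, and Adam22 and Adam23 from neurons, where they lack protease activity. A second Adam19 probe set, at 3.2 to 13.3 in the hyperinsulinemic group and 8.1 to 18.3 in the normal group, lay near the floor, while the tested one ran from 288 to 343 and from 280.2 to 392.

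Secreted ADAMTS proteases cut proteoglycans and were the one family with a median above 0, at 0.08, with 2 of 3 probe sets above 0 and 0 past an unadjusted p of 0.05. Adamts1, which cleaves versican and aggrecan and is needed for normal kidney development in mice, gave 488, 562, 493.4, 489 and 464 in hyperinsulinemic kidneys and 474, 522, 452, 454 and 457 in normal kidneys. All 5 hyperinsulinemic arrays lay above the normal median, yet only 1 exceeded every normal array, and the difference was 0.08 ± 0.06 (adjusted p = 0.973). Adamts9, a versican-cleaving relative, had 517, 498, 434, 357 and 373 in hyperinsulinemic kidneys and 425, 386, 435, 353 and 422 in normal kidneys. The 2 highest values were hyperinsulinemic replicates 6 and 7, with a difference of 0.09 ± 0.10 (adjusted p = 0.973), which was -0.02 without the 2 arrays that had the most Alb. Adamts7 differed by -0.0047 ± 0.08.

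Astacin-type proteases were all measured, and 4 of 4 probe sets lay below 0, with a median of -0.10. Mep1b, the beta subunit of meprin and a marker of the proximal tubule brush border, gave 548, 693, 698, 743 and 787 in hyperinsulinemic kidneys and 774, 856, 782, 707 and 802 in normal kidneys. Replicate 6 was the lowest, 3 hyperinsulinemic arrays lay below every normal one, and the difference was -0.18 ± 0.08 (unadjusted p = 0.0521, adjusted p = 0.931). Mep1a, the alpha subunit, stood at 975, 1206, 1169, 1106 and 1560.4 in hyperinsulinemic kidneys and 1262, 1331, 1182, 1280.1 and 1474 in normal kidneys. Hyperinsulinemic replicates 6 and 10 held the lowest and the highest value of all 10 arrays, and the difference was -0.13 ± 0.10 (adjusted p = 0.973). Replicate 6, the lowest in both meprins, was also the array with the most liver transcripts. Without it the difference was -0.06 for Mep1a and -0.10 for Mep1b. Without the 2 arrays with the most Alb it was -0.07 for Mep1a and -0.14 for Mep1b (limma adjusted p = 0.769). With the liver score as a covariate it was 0.03 for Mep1a and -0.0044 for Mep1b. That score had itself a higher mean in the hyperinsulinemic group, at 7.71 ± 0.94 against 6.67 ± 0.67 (SD, n = 5 each). Its ranges overlapped, at 6.75 to 9.23 and 6.28 to 7.87 (exact two-sided permutation p = 0.0952, adjusted p = 0.229 over 6 marker lists). The cause of these changes was not tested. Bmp1, the procollagen C-proteinase that trims fibrillar procollagens, had 427, 373, 410.2, 417 and 415 in hyperinsulinemic kidneys and 356, 449.7, 387, 422 and 437 in normal kidneys. Both groups covered the same range and the difference was -0.0034 ± 0.07 (adjusted p = 0.998), within -0.15 to 0.15; the dimmer probe set differed by -0.06 ± 0.15.

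Cathepsins were the largest tested family, with 13 probe sets of 11 genes, 10 below 0 and 3 above, a median of -0.06 and 2 below an unadjusted p of 0.05. Ctsl, a cysteine protease that also cuts matrix and podocyte proteins, was measured by a pair of probe sets. The one with the lower p gave 389, 459, 499, 518 and 479.6 in hyperinsulinemic kidneys and 567, 527, 649.6, 530.3 and 461 in normal kidneys. All 5 hyperinsulinemic arrays were below the normal median and 2 below every normal array, at a difference of -0.21 ± 0.09 (unadjusted p = 0.0344, adjusted p = 0.918). The brighter one stood at 1493, 1339, 1379, 1278 and 1498 in hyperinsulinemic kidneys and 1489, 1427, 1499, 1449 and 1452 in normal kidneys, and its difference was smaller, at -0.07 ± 0.05 (adjusted p = 0.973). Ctsh, an aminopeptidase of lysosomes, had 1962, 1744, 1689, 1567 and 1781 in hyperinsulinemic kidneys and 1933, 1954, 1785, 2121 and 1894 in normal kidneys. Apart from replicate 6, each hyperinsulinemic array was lower than every normal one, with a difference of -0.15 ± 0.06 (unadjusted p = 0.0356, adjusted p = 0.918).

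Ctsk, the collagen-degrading cathepsin best known from osteoclasts, showed the largest absolute difference of the 42, -0.22 ± 0.11 (unadjusted p = 0.0553, adjusted p = 0.931). Its signals were 137, 119.7, 119, 139 and 177 in hyperinsulinemic kidneys and 156, 153, 145, 192 and 169 in normal kidneys. Replicate 10 lay among the normal arrays and the other 4 hyperinsulinemic ones below them all. Ctss, an elastin-cutting cathepsin of macrophages and other antigen-presenting cells, gave 95.8, 99.4, 109, 133 and 126 in hyperinsulinemic kidneys and 119, 125, 142, 154 and 117 in normal kidneys. The difference was -0.20 ± 0.10 (adjusted p = 0.941), and 3 hyperinsulinemic arrays were lower than every normal one. Macrophage and other leukocyte markers gave values on the other side: of 8 tested, 6 were above 0 and 2 below, and their summed signal was 966 to 1117 in the hyperinsulinemic group and 900.5 to 1041 in the normal group (exact two-sided permutation p = 0.175 for the mean log2 signal).

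Ctsb, a broad lysosomal cysteine protease, stood at 1478, 1814, 1697, 1629 and 1985 in hyperinsulinemic kidneys and 1642, 1831, 1814, 1834 and 1749 in normal kidneys. Replicate 6 was the lowest and replicate 10 the highest of all 10 arrays, and the difference was -0.05 ± 0.07 (adjusted p = 0.974). Ctsd, the main lysosomal aspartic protease, leaned the other way, at 1256, 1114, 1270.2, 1394 and 1298 in hyperinsulinemic kidneys and 1056, 1322, 1153, 1057 and 1254 in normal kidneys. Here 4 of 5 hyperinsulinemic arrays were above the normal median, and the difference of 0.12 ± 0.07 was the largest positive one of the 42 (adjusted p = 0.969). Ctsa, Ctsc, Ctse, Ctsf and Ctsz differed by between -0.06 and 0.08. The 3 cathepsins below the filter, Ctsj, Ctsq and Ctsr, belong to a rodent branch known from the placenta, and their 4 probe sets gave 0.4 to 21.4.

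**Figure D4:**
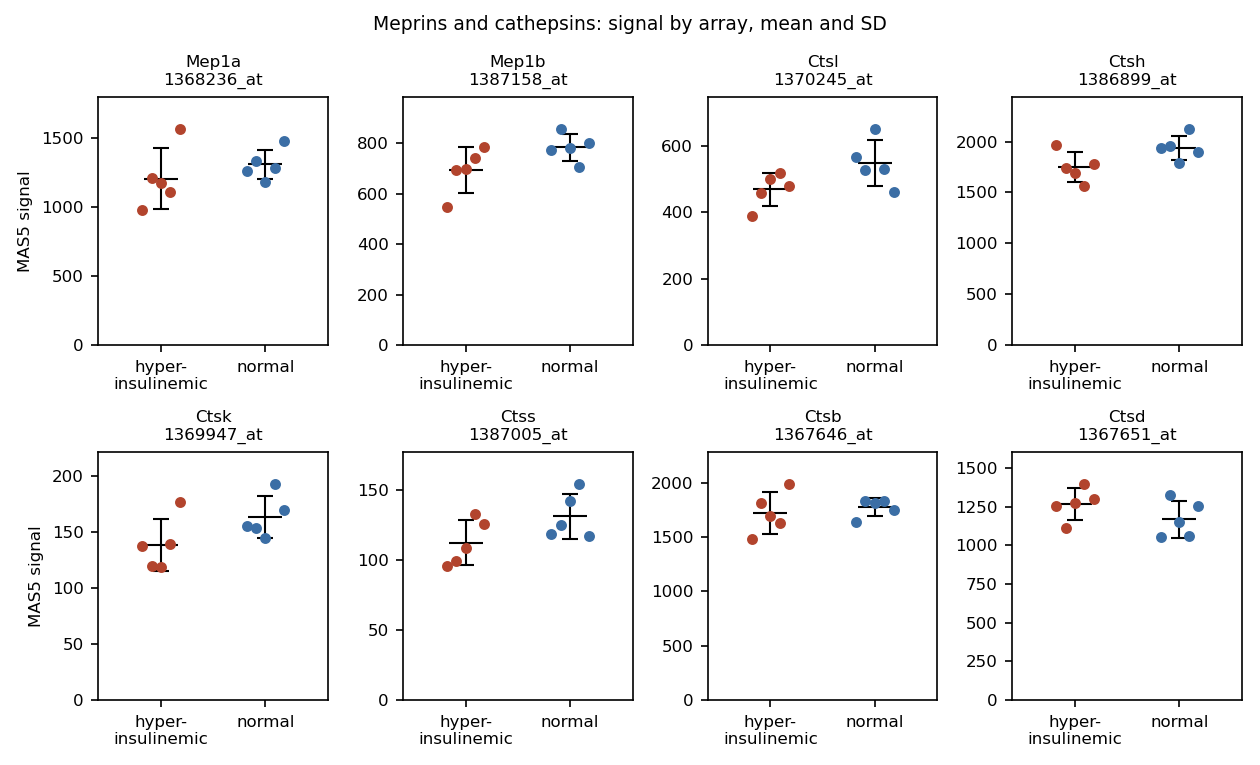
MAS5 signal of both meprin subunits and of 6 cathepsin probe sets on each array (y axis, linear from 0), hyperinsulinemic left and normal right; points are arrays, and bars the mean and SD of 5. For Ctsh and Ctsk 4 hyperinsulinemic arrays lie below all normal ones, while for Ctsd the hyperinsulinemic mean is the higher, at 1266 against 1168.

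Genes that act around these proteases were read from lists made for the purpose. Of 42 activators, inhibitors and receptors 23 were tested. Among these 23, 0 reached an adjusted p of 0.05 in limma, where 1 of all 9601 probe sets did. Of the 23, 15 (65.2%) lay below 0 and 8 above, against 49.1% below 0 over all 9601, and their median difference was -0.02. At an unadjusted p under 0.05 in limma, 2 (8.70%) were lower and 0 higher, against 2.93% and 2.44% of all probe sets. Plau, the urokinase that starts plasmin formation and so the activation of several pro-MMPs, had the lowest p. It was 1636, 1788, 1743, 1646 and 1644 in hyperinsulinemic kidneys and 1895, 1884, 2176, 1835 and 1999 in normal kidneys. Its groups did not overlap, which held for 1 of the 23 and for 1.04% of all probe sets. The difference was -0.21 ± 0.06 (unadjusted p = 0.0022, adjusted p = 0.661). Lgmn, the endopeptidase that processes lysosomal cathepsins, differed by -0.18 ± 0.08 (adjusted p = 0.919), with replicate 6 the lowest at 674 and replicate 10 the highest at 1017. The next by p were the cysteine protease inhibitor Cst3 and the C1 inhibitor gene Serping1, both above an unadjusted p of 0.05. Of 37 substrates 30 were tested. Lum, Postn, Dcn, Col1a1 and Col3a1 stand in the stroma list too, so the counts of these lists are not separate results. Of the 30 substrates 0 passed, 21 (70%) lay below 0 and 9 above, against 49.1% below 0 over all 9601, with a median of -0.03. In limma 6 (20%) were lower at an unadjusted p under 0.05 and 1 was higher, against 2.93% and 2.44% of all probe sets. Groups did not overlap in 1 of the 30, against 1.04% of all probe sets. The 4 with the lowest p were Lum, Postn, Igfbp3 and Dcn, of which Lum, Postn and Dcn are also stroma markers, at differences of -0.63 ± 0.11, -0.43 ± 0.09, -0.30 ± 0.09 and -0.15 ± 0.05. Of these 4, only Lum had groups that did not overlap, at 224 ± 29.1 and 357 ± 57.0 (SD, n = 5 each; limma adjusted p = 0.132).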

How the data were processed

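The deposited intensity values were MAS5 signals, 1 per probe set and array, per the submitters' processing notes; MAS5 settings and its version are not given in the sources used here. Symbols came from the platform annotation and promoters from RefSeq (GRCr8), to which 50 of 50 genes were matched by Entrez identifier. Probe sets were kept if 5 or more of the 10 arrays placed them at or over that array's 40th percentile, and 57 control probe sets were left out. log2(signal + 16) was computed from the deposited signals and tested with limma 3.58.1 (lmFit, eBayes with a trend) in R 4.3.3, with Benjamini-Hochberg adjustment over 9601 probe sets; the steps were tested on simulated data. The number of arrays limits the precision. Members and lists were chosen with earlier results of these data known. Values on every array are given for probe sets with an unadjusted p under 0.05, for a fixed list of well-known members and for the 2 largest differences per family; from each neighbouring list the 4 genes with the lowest p are named. Mmp7, Mmp16 and Mmp17 are below the filter and were added to these after their values were seen, as were the second probe sets of named genes. Alternatives covered pseudocount, filter, scaling, variance model, array weights, marker and quality covariates and left-out arrays.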

Additional observations from a re-analysis of the deposited data

Results flagged for a closer look

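Of 84 sets of 5 arrays checked (42 probe sets in each group), 3 held an array far from the other 4, where chance gives about 1 in 20. Ctse was 147.6 in hyperinsulinemic replicate 9, against 97.4 to 107 on the other hyperinsulinemic arrays. Ctsc, on one of its probe sets, was 329.6 in normal replicate 5, against 499 to 572 on the other normal arrays. Ctsz was 193.5 in normal replicate 4, against 161 to 168 on the other normal arrays.

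Outside the proteases, Xist averaged 56.9 in the hyperinsulinemic group, above its range of 0.8 to 2 in the normal group. Its part in the differences reported was not tested, since it separates the groups completely.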

How the results depend on the processing

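No paired analysis was made, because the labels give no litter, batch or other match between samples of the groups. No member reached an adjusted p of 0.05 under any alternative run, and the members' median difference stayed between -0.09 and -0.04. Leaving out 1 array at a time gave 0 to 4 calls over all probe sets (1 with all arrays), 1 to 7 members lower and 0 to 1 higher at an unadjusted p under 0.05; differences ran from -0.060 to 0.032 for Mmp2, -0.051 to 0.030 for Bmp1, -0.013 to 0.12 for Adam17, -0.035 to 0.16 for Mmp14 and -0.10 to 0.0032 for Ctsb. Calls over all probe sets numbered 5 with no filter, 2 with a common median, 4 with array weights, and 0 without the trend, with the liver or stroma covariate, or without the 2 arrays with the most Alb. Under the stricter filter 21 of 28 members lay below 0, fewer being tested. The liver covariate left 2 members lower and gave 0.027 for Mep1a, 0.042 for Ctsb and 0.0087 for Mmp23. The stroma covariate, added after seeing the data, left 1 lower (Timp3) and 1 higher (Ctse), turned the sign to 0.12 for Timp2, 0.14 for Reck, 0.015 for Ctsh, 0.16 for Mmp2, 0.11 for Adam10 and -0.061 for Ctsd, and enlarged others, to -0.40 and -0.42 for 2 Timp3 probe sets, -0.32 for Mep1a, -0.31 for Mep1b, -0.35 for Adam9, 0.44 for Mmp14 and 0.25 for Adamts1. Adam17 was -0.030 with array weights and -0.025 without the 2 Alb arrays, which also gave 0.052 for Mmp2, 0.015 for Ctsb and -0.016 for Adamts9. The cause of these changes was not tested. With 5 arrays a group, precision limits what could be seen: the median standard error was 0.087, near the size of the differences.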

Other observations

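Some arrays held more of the extreme values than others. Over the 42 tested probe sets, hyperinsulinemic replicate 6 was the lowest of all 10 arrays for 10 and hyperinsulinemic replicate 10 the highest for 8, while normal replicate 4 was the highest for 9. Hyperinsulinemic replicate 6 also had the lowest median correlation with the other arrays, 0.974 against 0.980 to 0.984.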
